A study of Homo sapiens with 14 samples.

Results

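The aminoacyl-tRNA synthetase mRNAs were chosen by gene name from 35 genes, with 19 cytosolic enzymes, 14 mitochondrial enzymes and the scaffold proteins AIMP1 and AIMP2. Of these, 26 had a transcript in at least 1 of the 4 deposited profiles, out of 6714 named genes and 20512 transcripts in all. The 26 were 20 of the 21 cytosolic members and 6 of the 14 mitochondrial ones. The rule took, for each gene, the transcript with the highest mean RPKM, a read density per length and library size.

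Each synthetase joins 1 amino acid to the tRNAs that read its codons. Most cytosolic enzymes and their mitochondrial counterparts come from separate nuclear genes, except that GARS1 and KARS1 supply both compartments, and EPRS1 carries a glutamate and a proline enzyme in a single chain. Several cytosolic enzymes sit with AIMP1, AIMP2 and EEF1E1 in the multisynthetase complex, and the enzymes fall into class I and class II by the fold of their catalytic domain.

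The cells were K562, an established human leukemia line that makes embryonic and fetal globins. HBG1 was listed at RPKM values from 1225 to 2652 and HBZ from 260 to 521 over the 4 profiles, while CD3E, a marker of T cells, and TAL1, an erythroid transcription factor, were not listed. The labels give 14 libraries. For icSHAPE, 3 libraries came from cells given 100 mM NAI-N3 for 5 min (in vivo), 2 from RNA that was extracted, refolded and then treated (in vitro) and 3 from DMSO controls. For icLASER, 2 libraries came from cells and 2 from refolded RNA given NAz-N3 from a 1 M stock with 10 min of UV light, and 2 were controls named in the labels as without UV. The protocol text attached to these libraries names DMSO as the control treatment. NAI-N3 acylates flexible 2′-hydroxyl groups, and NAz-N3 marks solvent-exposed C8 positions of purines. All groups share this line, and the labels name no genetic change. The authors pooled replicates and controls into 1 profile per reagent and condition, so no difference below has a replicate check, no p-value is given and the depth behind a score is unknown. A score runs from 0 to 1 and compares the reads of the reagent with those of the control at 1 nucleotide.

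Start codon windows show the stretches where ribosomes begin on the most abundant members with all 30 nt scored in the 4 profiles, 4 cytosolic and 2 mitochondrial. Each runs from 15 nt before the A of the annotated start to 15 nt counted from that A, 5′ to 3′, with the start codon in capitals, and positions are on GRCh38.
SARS1: ccgggaggaaagaagAUGgugcuggaucug
AARS1: ggggugacuuucaagAUGgacucuacucua
NARS1: agggccacugcaggcAUGgugcuagcagag
EPRS1: agcggacugguggagAUGgcgacgcucucu
IARS2: agggguugccggaccAUGcguugggggcug
RARS2: uccguagagguggacAUGgcgugcggcuuu
The SARS1 window lies in exon 1 at chr1:109213978-109214007 on the plus strand, that of AARS1 in exon 2 at chr16:70282749-70282778 on the minus strand and that of EPRS1 in exon 1 at chr1:220046374-220046403 on the minus strand. The NARS1 window joins exons 1 and 2 and spans chr18:57620647-57621732 on the minus strand. Those of IARS2 and RARS2 lie in exon 1, at chr1:220094202-220094231 on the plus strand and at chr6:87589943-87589972 on the minus strand. All 6 carry a purine 3 nt before the A, and IARS2 alone of the 6 lacks a G just after the AUG. Over the 25 members with a full-length coding transcript, 23 had a purine at the upstream position (92.0%) and 15 a G at the downstream one (60.0%), beside 90.9% and 55.4% of 3444 genes.

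The first question was how much of each synthetase mRNA the profiles held. SARS1, which charges serine, was the most abundant by mean RPKM, with an RPKM of 101.3 in the icSHAPE in vitro profile, 106.0 in icSHAPE in vivo, 61.3 in icLASER in vitro and 84.1 in icLASER in vivo. AARS1, the alanine enzyme, gave 62.1, 84.1, 67.6 and 81.7 in the same order. Both lay above every other listed member in each profile, and GARS1 came nearly level with AARS1 in icLASER in vivo. NARS1, the asparagine enzyme, had 44.2, 45.8, 33.3 and 33.2, WARS1 for tryptophan 31.1, 44.7, 29.9 and 39.2, and KARS1 for lysine 29.8, 41.1, 28.0 and 29.3. FARSB, the beta subunit of the phenylalanine enzyme, reached 30.3, 40.8, 30.8 and 21.4, while its partner subunit FARSA was absent from icSHAPE in vitro and had 7.62, 9.03 and 8.09 in the other three. The 2 subunits of 1 enzyme thus differed more in RPKM than either did between conditions.

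For 10 of the 26 members the transcript chosen by the rule was not typed protein coding. EPRS1 was represented by ENST00000468487, 458 nt from the last exons of the gene, with an RPKM of 40.5, 42.8, 57.4 and 71.6, beside 38.7, 37.1, 38.4 and 40.2 for its full-length mRNA ENST00000366923. GARS1 was represented by ENST00000496643, a retained-intron transcript of 772 nt with 28.4, 33.5, 46.5 and 81.3, beside 29.3, 39.0, 34.9 and 45.4 for its full-length mRNA. TARS1, the threonine enzyme, gave 27.3, 29.0, 22.4 and 28.7 on a retained-intron transcript of 760 nt and 15.5, 17.9, 12.2 and 11.2 on the full-length mRNA. All 3 short transcripts overlap the last exon of the full-length mRNA, and in each the ratio of short to full-length RPKM was highest in icLASER in vivo, at 1.78 for EPRS1, 1.79 for GARS1 and 2.56 for TARS1. Of 13 members whose rule transcript was another than the full-length mRNA, 11 had one that overlapped its last exon. Reads shared between transcripts of a gene cannot be told apart here.

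The mitochondrial enzymes were at lower levels, and 8 of the 14 were not listed: EARS2, HARS2, LARS2, NARS2, PARS2, TARS2, VARS2 and WARS2. HARS1, the cytosolic histidine enzyme that neighbours HARS2 in the genome, was the single cytosolic member not listed. The profiles list transcripts at an RPKM of about 5 or more, and 401 listed transcripts could not be named here, so absence from the list is not absence of the mRNA. IARS2, the isoleucine enzyme of mitochondria, was the most abundant of the 6, with 22.3, 29.4, 20.4 and 13.1. RARS2 for arginine had 12.1, 12.7, 9.68 and 6.49. FARS2 for phenylalanine had 6.07, 5.89 and 6.28 without icSHAPE in vitro, and YARS2 for tyrosine 10.2, 9.004 and 8.85 in the same 3 profiles on a 489 nt transcript. MARS2 for methionine was in the icSHAPE in vivo profile alone at 6.06, and SARS2 for serine in icLASER in vivo alone at 7.91. The median RPKM of cytosolic and mitochondrial members was 27.5 and 17.2 in icSHAPE in vitro (17 and 2 genes), 31.3 and 10.2 in icSHAPE in vivo (18 and 5), 25.2 and 9.34 in icLASER in vitro (18 and 4) and 21.9 and 7.91 in icLASER in vivo (20 and 5). The ranges overlapped in every profile.

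In vivo and in vitro RPKM were close. In bulk RNA, fewer cells with an mRNA and less of it per cell cannot be told apart. No member changed by 2-fold in either direction, 0 of 19 for icSHAPE and 0 of 22 for icLASER. Over all genes, 0.744% were 2-fold higher and 5.64% 2-fold lower in icSHAPE, and 3.00% and 4.66% in icLASER. The median log2 ratio of in vivo to in vitro was 0.24 in icSHAPE and -0.01 in icLASER, beside 0.12 and 0.15 for all genes. The widest values were those of VARS1, the valine enzyme, at 0.73 in icSHAPE (12.9 to 21.5) but -0.31 in icLASER (40.4 to 32.7), AIMP1 at -0.78 in icSHAPE (20.3 to 11.8), and GARS1 at 0.80 in icLASER. The AIMP1 and GARS1 values come from short transcripts, and on the full-length mRNAs the RPKM went from 11.99 to 9.33 for AIMP1 and from 34.9 to 45.4 for GARS1. IARS2 and RARS2 were at -0.64 and -0.58 in icLASER, where the icSHAPE values were 0.40 and 0.07. The sign differed between reagents for VARS1, IARS2 and RARS2, among others. AIMP2, the other scaffold protein, had an RPKM of 14.4, 16.2, 12.1 and 10.97.

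The second question was where along the mRNA the scores differed between cells and refolded RNA. As designed, the comparison used the most abundant coding transcript whose length equalled the annotation used here. That left 18 members, mostly on short or alternative transcripts. Their regions can cover other stretches of the mRNA: the coding sequence of TARS1 was 171 nt there and 2172 nt on the full-length mRNA. The values below are therefore those of full-length coding transcripts, a choice made after the data were seen: the coding length is that of the MANE Select transcript, and 22 of the 25 members were placed on the genome by their own scores because their deposited ends differ. Values by the designed choice stand beside them, since the direction depends on it for some members: of 66 values given by both choices, 16 had another sign, 5 of them called on the full-length transcript. On the full-length mRNAs the median lengths were 144 nt for the 5′ UTR, 1794 nt for the coding sequence and 232 nt for the 3′ UTR, against 160, 957 and 664 nt over 3485 genes. The synthetase mRNAs thus had a coding sequence longer, and a 3′ UTR shorter, than the median gene.

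In the coding sequence the icSHAPE score was higher in vivo for each of the 19 members that could be compared, with medians of 0.174 in vitro and 0.211 in vivo and a median difference of 0.0338, but with each profile divided by its own mean 10 of 19 were higher and the median difference was 0.000454. Over all 2168 genes, 1873 were higher and the median was 0.0338 before that division, and 1082 were higher after it. By the designed choice it was 0.0267 over 13 members, with 11 above 0. A difference of 0.05 or more, the size called here, was reached upward by 3 of 19 members, beside 28.4% of all genes, and downward by none, beside 1.66%. With profiles divided by their own mean 0 of 19 were called higher, beside 7.47% of genes. At a mean RPKM of 20 or more 1 of 11 members was called higher, and no share of all genes was taken at that limit. By the designed choice 2 of 13 were higher, beside 24.8% of genes, and 2 lower, beside 2.40%, namely TARS1 at -0.05 and NARS1 at -0.06, which were at 0.04 and 0.03 on the full-length transcript. The 3 called higher on full-length transcripts were LARS1, the leucine enzyme (0.159 in vitro, 0.229 in vivo, difference 0.070 ± 0.005, SE over 3531 nt), RARS2 (0.133, 0.199, 0.066 ± 0.008 over 1737 nt) and IARS2 (0.168, 0.228, 0.060 ± 0.005 over 3039 nt), at 0.03, 0.04 and 0.02 after that division. Both mitochondrial enzymes measured were among them. The smallest values were those of AARS1 (0.195 and 0.202, difference 0.007 ± 0.004) and FARSB (0.232 and 0.244, 0.013 ± 0.007). These errors describe the scatter over nucleotides, not over libraries.

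In icLASER the coding sequence as a whole was nearly level, with a median difference of -0.01 over 22 members and -0.01 over 2634 genes, and -0.02 by the designed choice over 15 members. No member passed 0.05 in either direction, where 7.29% of all genes were higher and 14% lower. The designed choice gave 0 of 15 higher, beside 6.31% of genes, and 2 lower, beside 12.9%. The highest were YARS1 (0.167 in vitro, 0.209 in vivo, 0.042 ± 0.005) and FARS2 (0.134, 0.163, 0.029 ± 0.008). The lowest were IARS2 (0.182, 0.137, -0.044 ± 0.005) and IARS1 (0.171, 0.129, -0.042 ± 0.005), closely followed by LARS1 at -0.038 and RARS1 at -0.032. The share of coding nucleotides at 0 in icLASER went from 31.8% in vitro to 64.6% in vivo in IARS2 and from 48.1% to 67.8% in IARS1. In VARS1, whose coding score was higher in vivo, it went from 29.6% to 45.2%. The median over members was 35.0% in vitro (22 genes) and 48.1% in vivo (24 genes). The part of zeros in these differences was not tested. The level average joined opposite ends. With the coding sequence cut into 3 equal parts, 21 of 22 members were lower in vivo in the first part, with a median of -0.07, 12 of 22 in the middle part, with -0.01, and all 22 were higher in the last part, with 0.05. The medians of all genes in the 3 parts were -0.04, -0.01 and 0.03, with 19.8%, 38.2% and 70.0% of genes above 0. For icSHAPE the medians of the members were 0.05, 0.04 and 0.02, beside 0.04, 0.04 and 0.03 over all genes.

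**Figure D1:**
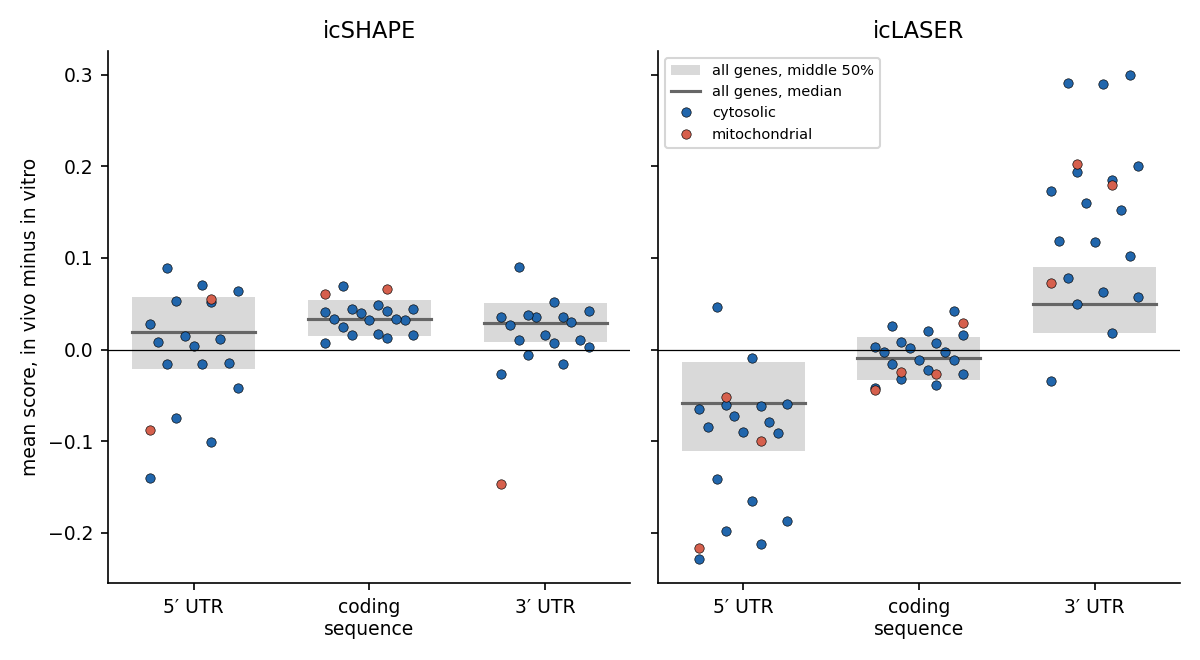
Mean score in vivo minus in vitro for each member by region, on full-length coding transcripts, icSHAPE left and icLASER right; blue points are cytosolic members, red points mitochondrial ones, grey bars the middle 50% of all genes and grey lines their median. In icLASER 19 of 20 5′ UTRs lie below 0 and 20 of 21 3′ UTRs above it, and the red point at -0.147 in the icSHAPE 3′ UTR is IARS2.

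The 5′ UTRs of the synthetase mRNAs had lower icLASER scores in cells, except TARS1 on full-length transcripts and NARS1 by the designed choice. The median went from 0.30 in vitro to 0.17 in vivo, a median difference of -0.09 over 20 members, beside -0.06 over 2418 genes, and -0.08 by the designed choice over 9 members. A fall of 0.05 or more was seen in 18 of 20 members and a rise in none, where all genes gave 54.4% and 6.91%. By the designed choice 5 of 9 were lower, beside 46.7% of genes, and 0 higher, beside 7.19%. FARSB was lowest (0.5998 in vitro, 0.371 in vivo, -0.228 ± 0.082), on 33 scored nucleotides. Next came IARS2 (0.383, 0.166, -0.216 ± 0.044 over 109 nt), LARS1 (0.382, 0.170, -0.212 ± 0.039 over 161 nt) and RARS1 (0.306, 0.108, -0.198 ± 0.056 over 42 nt). TARS1 was higher in vivo on the full-length transcript (0.499, 0.546, 0.047 ± 0.082 over 45 nt) and lower by the designed choice (0.359, 0.178, -0.18 over 117 nt), and NARS1 was at -0.06 and 0.03 in the same order. AARS1 was nearly level (0.331, 0.322, -0.009 ± 0.034). On full-length transcripts all 8 multisynthetase complex members measured were called lower, with a median of -0.09, and by the designed choice 3 of 6 were, with -0.05. The 9 class I enzymes had a median of -0.16 and the 8 class II enzymes -0.07, with ranges that overlapped, and the designed medians were -0.18 and -0.02 over 3 genes each. Coding nucleotides at the same distance from the 5′ end of the transcript were lower too. From 30 to under 130 nt from that end the icLASER medians of the members were -0.07 in the 5′ UTR (13 genes) and -0.10 in the coding sequence (6 genes), and from 130 to under 230 nt both were -0.12 (8 and 13 genes). Over all genes the 4 medians were -0.05 each. Farther in, the 5′ UTR was the lower one, at -0.11 (8 genes) against -0.06 (17 genes) from 230 to under 430 nt, beside -0.04 and -0.03 over all genes, and at -0.09 (2 genes) against -0.05 (21 genes) from 430 to under 830 nt, beside -0.04 and -0.01.

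In icSHAPE the 5′ UTRs went both ways, with a median difference of 0.01 over 19 members, which turned to -0.03 with each profile divided by its own mean. It was 0.02 over 2020 genes, and 0.04 over 9 members by the designed choice. By 0.05 or more, 6 of 19 were higher, beside 29.3% of genes, and 4 lower, beside 14.7%. With each profile divided by its own mean the balance turned, with 1 of 19 higher, beside 13.6% of genes, and 6 lower, beside 29.5%. By the designed choice all 9 were above 0, with 3 called higher, beside 30.6% of genes, and 0 lower, beside 12.1%. The higher ones were led by VARS1 (0.153 in vitro, 0.242 in vivo, 0.089 ± 0.015 over 435 nt) and EPRS1 (0.139, 0.209, 0.070 ± 0.019 over 255 nt), at 0.05 and 0.04 after that division. The lower ones were led by KARS1 (0.277, 0.137, -0.140 ± 0.055 over 34 nt), which was higher by the designed choice (0.249, 0.333, 0.084 ± 0.042 over 99 nt), and by LARS1 (0.360, 0.260, -0.101 ± 0.030 over 161 nt), which was at 0.02 by the designed choice (0.207, 0.232, over 167 nt). VARS1 thus had a higher icSHAPE and a lower icLASER score in vivo (icLASER 0.308 to 0.143) over 435 nucleotides.

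At the AUG itself the G had an icLASER mean of 0.471 in vitro and 0.224 in vivo over the 22 members measured in both, and 14 were lower (63.6%), 5 higher (22.7%) and 3 equal. Over 2552 genes the means were 0.494 and 0.339, with 54.5% lower and 21.2% higher. At the A the members had 0.287 and 0.185, and at the U 0.177 and 0.0955. In the windows printed above, the G of AARS1 went from 0.397 to 0, those of EPRS1 and IARS2 from 1 to 0 and that of NARS1 from 1 to 0.349, whereas SARS1 went from 0.164 to 0.228 and RARS2 from 0.301 to 1. TARS1 had scores of at least 0.965 at A, U and G in all 4 profiles, and without it the icLASER means at the G were 0.446 and 0.187. In icSHAPE the G averaged 0.165 in vitro and 0.254 in vivo over 19 members, with 10 higher (52.6%) and 4 lower (21.1%), beside 0.206 and 0.249 over 2107 genes, with 46.5% higher and 27.3% lower. The error of a score at a single nucleotide is unknown, and icSHAPE scores varied more with the next base than with the listed one.

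GARS1 has a second in-frame AUG, at codon 55, which is known as the start of the cytosolic form, while the first adds a mitochondrial targeting sequence. Both windows are shown because the 2 starts serve the 2 compartments, with the AUG in capitals.
GARS1 codon 1: cagggccgcaggcucAUGcccucuccgcgu
GARS1 codon 55: gccucccggagcagcAUGgacggcgcgggg
They lie in exon 1 on the plus strand, at chr7:30594907-30594936 and chr7:30595069-30595098. The 30 nt around codon 1 averaged 0.247 in icSHAPE in vitro, 0.239 in icSHAPE in vivo, 0.195 in icLASER in vitro and 0.168 in icLASER in vivo. Around codon 55 the means were 0.264, 0.230, 0.495 and 0.508. The window around codon 55 thus scored higher in icLASER in both conditions, and the 2 windows were close in icSHAPE. The windows differ in base composition, and scores were not matched for base. At the G of the AUG, icLASER gave 0.248 and 0.171 at codon 1, and 0.554 and 1 at codon 55.

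In the icLASER 3′ UTR the median went from 0.09 in vitro to 0.21 in vivo, a median difference of 0.15 over 21 members, beside 0.05 over 2526 genes. By the designed choice the median was 0.03 over 11 members and 0.04 over 1692 genes, so the size depends on the transcripts taken. A rise of 0.05 or more was seen in 18 of 21 members, beside 49.8% of genes, and a fall in none, beside 1.43%. By the designed choice 4 of 11 were higher, beside 45.9% of genes, a share below the background, and 1 lower, beside 1.48%, namely YARS2 at -0.07, which was at 0.07 on the full-length transcript. TARS1 was at 0.10 on the full-length transcript and -0.01 by the designed choice. VARS1 was highest (0.007 in vitro, 0.307 in vivo, 0.2997 ± 0.046 over 46 nt), followed by GARS1 (0.076, 0.367, 0.291 ± 0.021 over 143 nt) and EPRS1 (0.094, 0.383, 0.289 ± 0.021 over 175 nt). Of 2526 genes with 3′ UTRs of any length, 11 were above VARS1, 13 above GARS1 and 14 above EPRS1. On full-length transcripts AIMP1 alone was lower in vivo (0.177, 0.142, -0.035 ± 0.012 over 769 nt), and FARSB was the lowest above 0 (0.052, 0.070, 0.018 ± 0.009 over 1125 nt).

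The 3 highest members had 3′ UTRs of 76, 173 and 205 nt, and the difference ran with distance from the 3′ end of the transcript. Among the 21 members the rank correlation of 3′ UTR length with the icLASER difference was -0.73, and among 2526 genes -0.69, given as a description across genes that share the same profiles. With a 3′ UTR under 300 nt, 11 of 11 members and 548 of 664 genes were called higher. At 300 nt or more, 7 of 10 members and 711 of 1862 genes were. From 30 to under 130 nt from the end the members had a median of 0.22, with 22 of 22 above 0 (all genes 0.15, 95.8%). In the bins that start at 130, 230, 430 and 830 nt it was 0.14, 0.07, 0.03 and -0.01 (all genes 0.08, 0.04, 0.005 and -0.02). Coding nucleotides near the end were higher too. In members whose coding sequence reached within 130 nt of the end the coding median was 0.28 (3 genes), and from 130 to under 230 nt it was 0.15 (8 genes), against 0.22 and 0.14 for 3′ UTR nucleotides. Over all genes the coding medians there were 0.11 and 0.08, against 0.15 and 0.08 in the 3′ UTR. In the bins from 230 and 430 nt the members had 0.07 and 0.04 in both regions. From 830 nt they had -0.004 in the coding sequence (22 genes) and 0.04 in the 3′ UTR (4 genes). For 3′ UTR nucleotides at least 230 nt from the end, 11 members gave a median of 0.05, with 6 called higher, beside a median of 0.01 and 19.3% over 1972 genes. The icLASER difference is given here by position from the end, and the parts of position and of region in it were not tested. Within members holding both regions in a bin, the median of 3′ UTR minus coding was -0.04 (2 genes), -0.11 (2), -0.04 (1), 0.01 (4) and -0.02 (4), from the end inward. In icSHAPE the members ran from 0.01 next to the end to 0.03 in the bin from 830 nt.

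**Figure D2:**
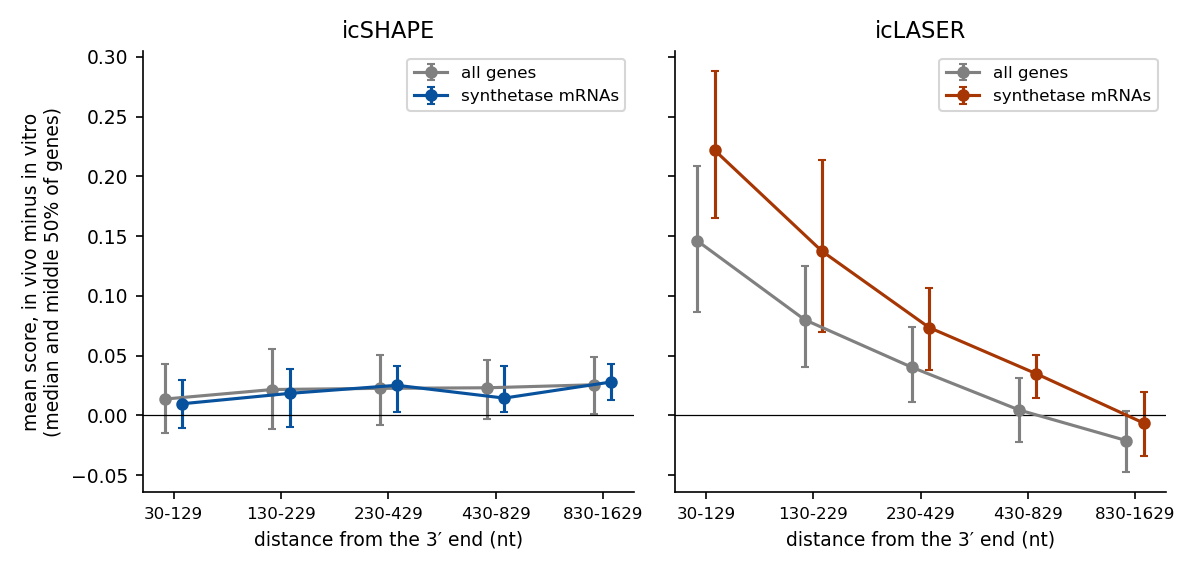
Mean score in vivo minus in vitro by distance from the 3′ end of the transcript (nt), icSHAPE left and icLASER right; points are medians and bars the middle 50% of genes, in colour for up to 22 synthetase mRNAs and in grey for all genes. The icLASER median of the members is 0.22 in the bin nearest the end and -0.01 in the farthest, and the icSHAPE medians stay between 0.01 and 0.03.

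The median of the members lay above that of all genes in each of these icLASER bins, while single members lay on both sides in the bin next to the end. The largest values next to the end were those of EPRS1 (0.107 in vitro, 0.495 in vivo), IARS1 (0.081, 0.417) and YARS1 (0.082, 0.396), and the smallest those of AIMP1 (0.129, 0.181), FARSA (0.113, 0.218) and SARS1 (0.042, 0.147). SARS1, the member of highest mean RPKM, was thus among the least changed.

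In icSHAPE the 3′ UTR median difference was 0.02 over 18 members (0.106 in vitro, 0.134 in vivo), 0.03 over 2077 genes and 0.01 by the designed choice over 9 members. With each profile divided by its own mean the full-length median was 0.003, with 9 of 18 above 0, and the designed one turned to -0.01. By that choice 3 of 9 were higher by 0.05 or more, beside 23.4% of genes, and 0 lower, beside 2.83%. On full-length transcripts 2 of 18 members were higher by 0.05 or more, beside 25.4% of genes, namely SARS1 (0.087, 0.177, 0.090 ± 0.013 over 202 nt) and AIMP1 (0.103, 0.155, 0.052 ± 0.011 over 769 nt), which were at 0.06 and 0.03 after that division. After it 1 of 18 members was called higher, beside 11.3% of genes, and 2 lower, beside 5.44%. Before the division the single member lower by 0.05 or more, beside 1.88% of genes, was IARS2 (0.222 in vitro, 0.075 in vivo, -0.147 ± 0.014 over 376 nt). It was the lowest of all 2077 genes. IARS1, the cytosolic counterpart, had 0.124 and 0.097 (-0.026 ± 0.008 over 570 nt).

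The IARS2 fall was largest at the start of the 3′ UTR. In the first 100 nt after the stop codon icSHAPE averaged 0.472 in vitro and 0.0853 in vivo, with 84 of 100 nucleotides lower in vivo. In the next 100 nt it was 0.190 and 0.097, in the third 0.101 and 0.073, and in the 76 scored nt after those 0.097 and 0.037. The 100 nt before the end of the coding sequence had 0.195 and 0.134. In the same first 100 nt icLASER went the other way, from 0.256 to 0.377. This rise was not particular to that stretch. In the 3 stretches after it icLASER went from 0.095 to 0.254, from 0.042 to 0.213 and from 0.045 to 0.340. The 30 nt of the 3′ UTR with the largest icSHAPE fall, picked after the values were seen, carry the difference in the plainest form, with capitals where the icSHAPE score was lower in vivo by 0.3 or more.
IARS2 3′ UTR: GUACugGCUAGAAGUUUGGauGGAuUaUUU
The window starts 37 nt after the stop codon, in exon 23 at chr1:220147672-220147701 on the plus strand. Its icSHAPE mean was 0.702 in vitro and 0.0583 in vivo, with 27 of 30 nucleotides lower, and 24 of them by at least 0.3. Its icLASER mean was 0.407 and 0.582, with 16 of 30 higher.

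**Figure D3:**
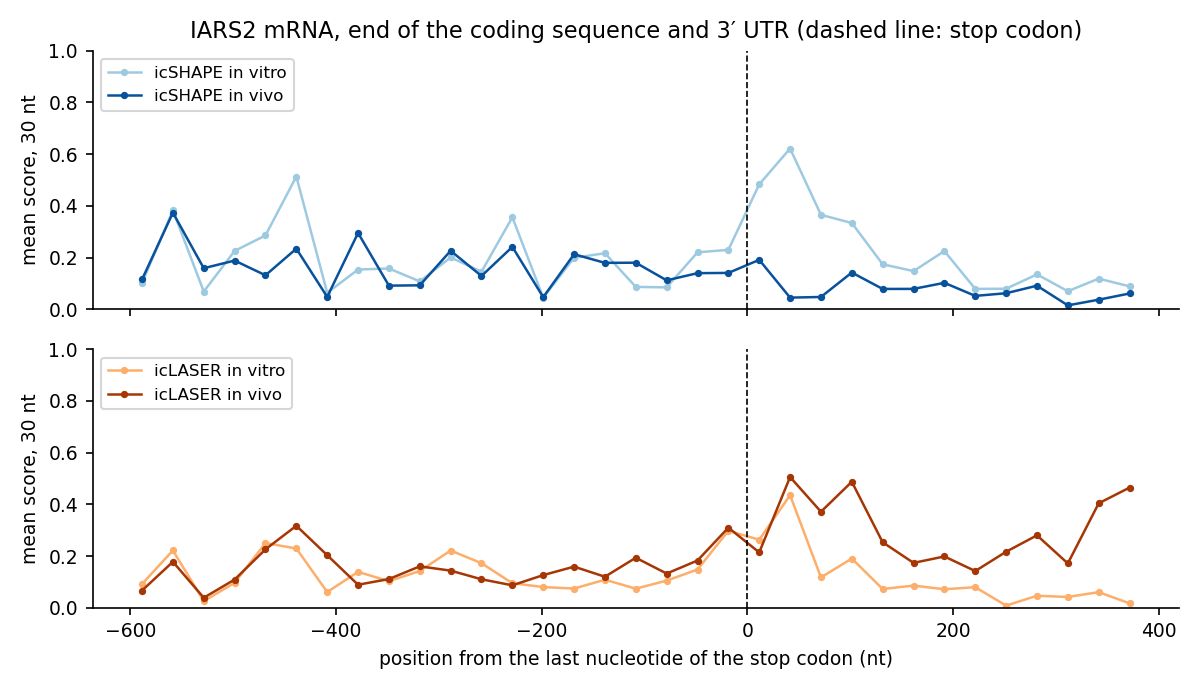
Mean score in bins of 30 nt along the end of the IARS2 coding sequence and its 3′ UTR, by position from the last nucleotide of the stop codon (dashed line), icSHAPE above and icLASER below, light for in vitro and dark for in vivo. The icSHAPE in vitro curve peaks just after the stop codon, where the in vivo curve stays low, and the icLASER in vivo curve is the upper one over most of the 3′ UTR.

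All 33192 fully scored windows of 30 nt in the 11 members with a mean RPKM of at least 20 were ranked by the difference between conditions averaged over both reagents, with 1 window per gene at each end. The 3 lowest are shown because they mark the stretches that lost most signal in cells, with capitals where icSHAPE was lower in vivo by 0.3 or more.
WARS1: AugcaGGGUgGggAGaAcGAAagACAAAAG
NARS1: aAAAGaUguGGcAUAgGGaACAAAUGAAGA
EPRS1: uGaaGgCUCAGuAuAAAGAaaAaACugGGA
The WARS1 window lies in the 5′ UTR, exon 1, starting at position -239 from the A of the start codon, at chr14:100375420-100375449 on the minus strand. Its icSHAPE mean was 0.686 in vitro and 0.148 in vivo, and its icLASER mean 0.696 and 0.377. The NARS1 window is in the coding sequence, exon 3, at chr18:57615840-57615869 on the minus strand, with 0.820 and 0.212 in icSHAPE and 0.873 and 0.641 in icLASER. The EPRS1 window is in coding exon 19 at chr1:219988757-219988786 on the minus strand, with 0.618 and 0.203 in icSHAPE and 0.615 and 0.216 in icLASER. The fall was thus larger in icSHAPE for WARS1 and NARS1 and of like size in both reagents for EPRS1. Of the 30 nucleotides in the EPRS1 window, 26 were lower in icSHAPE and 28 in icLASER.

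The 3 highest windows are shown with capitals where icSHAPE was higher in vivo by 0.3 or more, and they hold few capitals.
EPRS1: ugugucggccacuggagcugagGacaaaGa
GARS1: aaaaaaaaaaacuacucuuauguccacuuu
AARS1: aaguaggAAucguuuuugcugcagagAaua
The rise was an icLASER one in all 3, with every one of the 30 nucleotides higher. EPRS1, in coding exon 20 at chr1:219987295-219987324 on the minus strand, had an icLASER mean of 0.137 in vitro and 0.756 in vivo, against 0.178 and 0.248 in icSHAPE. GARS1, in the 3′ UTR in exon 17 at chr7:30633901-30633930 on the plus strand, had 0.070 and 0.552 against 0.126 and 0.158. AARS1, in the 3′ UTR in exon 21 at chr16:70252408-70252437 on the minus strand, had 0.053 and 0.475 against 0.092 and 0.149. The GARS1 and AARS1 windows lie 103 and 113 nt from the 3′ end of their transcript, within the range where icLASER was higher in most genes. The EPRS1 window does not, at 1859 nt from the end.

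The rise in EPRS1 extended past the window on both sides and then ended. In the 100 nt starting at the window icLASER averaged 0.105 in vitro and 0.510 in vivo, in the next 100 nt 0.0578 and 0.289, and in the third 0.0814 and 0.129. In the 100 nt before it the scores were 0.290 and 0.496, and in the 100 nt before those 0.112 and 0.098. The 30 nt that follow the window hold 21 A. Another listed EPRS1 transcript, ENST00000609181, ends 1 nt before the 3′ end of the window, at position 219987296 of chromosome 1, and was listed at an RPKM of 16.97, 17.9, 12.8 and 10.2. The part of this transcript end or of the A-rich stretch in the result was not tested.

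**Figure D4:**
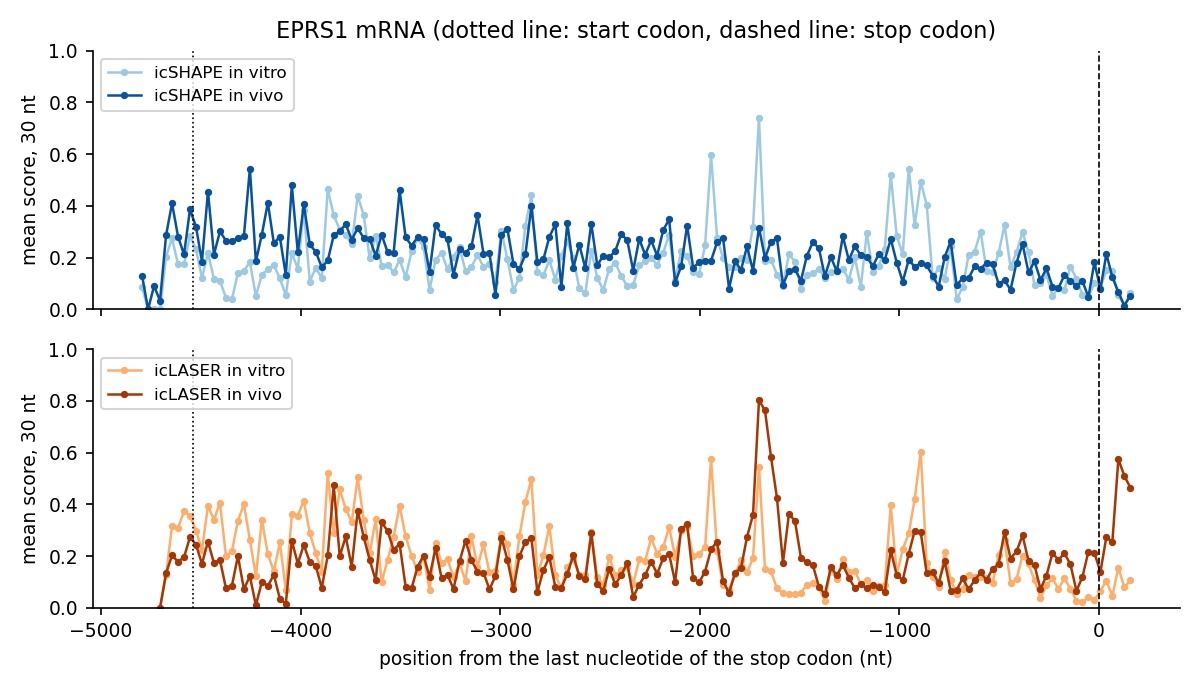
Mean score in bins of 30 nt along the EPRS1 mRNA by position from the last nucleotide of the stop codon (dashed line; dotted line, start codon), icSHAPE above and icLASER below, light for in vitro and dark for in vivo. The icLASER in vivo curve stands above the in vitro one in coding exon 20 and again at the 3′ end, and below it near the start codon.

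Cytosolic and mitochondrial members were compared by region, with few mitochondrial mRNAs to set against the cytosolic ones. In the coding sequence the icSHAPE medians were 0.03 for 17 cytosolic and 0.06 for 2 mitochondrial members, and the highest cytosolic value, LARS1 at 0.070, lay above both IARS2 and RARS2. The icSHAPE 5′ UTR medians were 0.01 (17) and -0.02 (2). Cytosolic minus mitochondrial there turned from 0.0246 to -0.0493 at a mean RPKM of 20 or more, with 1 mitochondrial member left. In icLASER the coding medians were -0.003 (18) and -0.03 (4), the 3′ UTR medians 0.14 (18) and 0.18 (3) and the 5′ UTR medians -0.08 (17) and -0.10 (3). In the designed choice the icLASER 3′ UTR values were in the other order, 0.04 (10) and -0.07 (1), the coding values were both -0.02 (14 and 1), and no mitochondrial 5′ UTR was measured. On full-length transcripts the ranges overlapped in each of these, so no separation of the 2 compartments is claimed. In the icSHAPE 3′ UTR IARS2 was the only mitochondrial member measured, and its value lay below all 17 cytosolic ones. Low abundance went with more scores at 0. In icSHAPE in vitro the median share of coding nucleotides at 0 was 63.1% in the 8 members with a mean RPKM under 20 and 43.9% in the 11 at 20 or over, and the median coding scores were 0.161 and 0.191. IARS2 had 57.4% and RARS2 72.5% at 0, and 7 cytosolic members lay between these values. The part of zeros in the scores was not tested.

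The 2 reagents agreed only in part on the same nucleotides. Across the nucleotides of a member the median Pearson correlation of icSHAPE and icLASER was 0.37 in vitro (19 members) and 0.32 in vivo (23), beside 0.34 and 0.31 over all genes. SARS1 had the highest values, 0.63 and 0.55, on 1816 nucleotides, and AARS1 followed in vivo with 0.47. The lowest in vivo were CARS1, the cysteine enzyme, at 0.18 and IARS1 at 0.21, with a mean RPKM of 6.12 and 11.4 on the full-length transcript. Between conditions the median was 0.50 for icSHAPE and 0.52 for icLASER. These are descriptions of nucleotides that share libraries and base composition. By listed base, members scored highest in icLASER at G (0.333 in vitro, 0.296 in vivo) and by the next base in the 3′ direction at A (0.253 and 0.243), and in icSHAPE by the next base at A (0.251 and 0.314) and U (0.210 and 0.275). The icLASER score thus tracked the next base as well as the listed one. The icSHAPE score varied more by the next base, in vivo from 0.082 (G) to 0.314 (A), than by the listed one, from 0.137 (C) to 0.227 (A). With scores moved 1 nt downstream or upstream the mean icLASER difference over the start codon was -0.0810 and -0.142 in place of -0.144.

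Other genes that handle tRNA were read from fixed lists. The first list held 7 genes, elongation factors that carry charged tRNA to the ribosome, their nucleotide exchange factors, and EEF1E1, a member of the multisynthetase complex. Of these 6 were listed and 5 could be compared in the coding sequence. In the icLASER 5′ UTR 4 of the 5 were called lower, beside 54.4% of all genes, led by EEF1B2 (0.366 in vitro, 0.114 in vivo) and EEF1G (0.414, 0.173), with a median of -0.23, while EEF1E1 was at -0.03. Their icLASER 3′ UTR median was 0.13 over 4 genes, beside 0.05 over all genes, and 0.06 over 4 genes by the designed choice, with EEF1G at 0.027 and 0.301 and EEF1A1, the cytosolic carrier, at 0.087 and 0.311. TUFM, its mitochondrial counterpart, had 0.116 and 0.153, and EEF1E1 0.204 and 0.243. Of 16 genes of tRNA maturation and export 6 were listed, and in the icLASER 5′ UTR 3 of 4 were called lower, beside the same 54.4%, among them XPOT, the tRNA exporter (0.368, 0.221), and SSB, which binds new transcripts of RNA polymerase III (0.256, 0.120). The designed choice gave 4 of 5 and 1 of 2, beside 46.7% of genes. With so few genes these counts are too few to set apart from all genes. Of the 4 genes of transamidation and formylation 1 was listed, and it could not be compared between conditions.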

How the data were processed

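K562 RNA from 14 libraries was probed with NAI-N3 or NAz-N3. The authors aligned reads to the Ensembl release 88 transcriptome on GRCh38 and ran the icSHAPE pipeline on pooled replicates and controls. The submitters' processing notes name Trimmomatic and Bowtie2, with versions not given in the sources used here. The pipeline's minimum coverage was set to 0, so thinly covered nucleotides carry scores too. They deposited RPKM per transcript and an enrichment score from 0 to 1 per nucleotide, for transcripts with an RPKM of about 5 or more. Genes, sequences and coding limits came from GENCODE release 44. Of transcripts with the annotated length and a clear placement, 99.9% of 11508 were placed at their known position by their scores. In icSHAPE, 13 scores in vitro and 3 in vivo lay outside 0 to 1. A region needed 30 nt scored in both profiles of a reagent, and a difference of 0.05, or a 2-fold RPKM change, was called. Named genes were the 8 cytosolic and 6 mitochondrial members of highest mean RPKM, the 2 largest rises and falls per reagent and region, the scaffold proteins, GARS1, KARS1, EPRS1, HARS1 and HARS2. TARS1 at the start codon and the IARS2 and EPRS1 stretches were picked after their values were seen. Python 3.11.15, numpy 2.4.6, scipy 1.17.1 and matplotlib 3.10.9 were used. The region step was tested on simulated data for long regions alone, with planted differences above the size called. Short regions, among them many of the UTRs given here, were not covered. The members and lists were chosen with earlier results of these data known. Alternatives were other transcripts, minimum lengths, scalings, bases, pseudocounts and score assignments.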

Additional observations from a re-analysis of the deposited data

How the results depend on the processing

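No paired analysis was possible because the deposited profiles pool the replicates. With 1 profile per reagent and condition, leaving out a replicate was not possible either, and the labels put no batch on the libraries. Over 50 results and 228 alternatives, 5 called values changed sign, 50 moved past the limit set and 173 did not. The limit was the 95% interval from the SE over members or, for single mRNAs, over nucleotides, and 1.5 times for counts. Below, full-length names the transcripts chosen after the data were seen. The 5 were full-length values that took the other sign by the designed choice: KARS1 (0.0836) and LARS1 (0.0248) in the icSHAPE 5′ UTR, NARS1 (0.0277) in the icLASER 5′ UTR, and TARS1 (-0.00932) and YARS2 (-0.0664) in the icLASER 3′ UTR. The members called by that choice were 5 of 9 in place of 18 of 20 in the icLASER 5′ UTR and 4 of 11 in place of 18 of 21 in the icLASER 3′ UTR, on fewer members and in part on other stretches of the mRNA. With each profile divided by its own mean, the icSHAPE 5′ UTR median became 0.00385 as designed and -0.0265 full-length, the icSHAPE coding median -0.00351 and 0.000454, and the members called higher there fell from 3 to 0. The icSHAPE 3′ UTR median became -0.0134 as designed and 0.00334 full-length, within the limit. As a share of scores of 0.5 or more, the medians were 0.0179 (icSHAPE 5′ UTR, as designed), 0.00660 (icSHAPE coding, full-length) and 0.104 (icLASER 3′ UTR, full-length). With A and G only they were 0.0672 (icSHAPE 5′ UTR, as designed), -0.135 (icLASER 5′ UTR, full-length) and, for icLASER coding, -0.0445 as designed and -0.0190 full-length, and 5 members were called higher in icSHAPE coding. With 100 nt or more, the designed icLASER 5′ UTR median was -0.179, and 11 full-length members were called lower in place of 18. At a mean RPKM of 20 or more, the designed icLASER 5′ UTR median was -0.0176, the designed icSHAPE 3′ UTR median 0.0578 and the full-length icSHAPE coding median 0.0252. The counts among the 11 members left were then 10 lower in the icLASER 5′ UTR, 1 higher in icSHAPE coding and 9 higher in the icLASER 3′ UTR, in part because fewer members remain. No share of all genes was taken for A and G only, at 100 nt or more or at this RPKM, so the counts called there are not set against all genes. Cytosolic minus mitochondrial in the icLASER 5′ UTR was 0.138 at this RPKM in place of 0.0146, with 1 mitochondrial member left. Full-length transcripts gave 0.00852 in the icSHAPE 5′ UTR in place of 0.0400 and 0.152 in the icLASER 3′ UTR in place of 0.0347, and 0.0503 there at 230 nt or more from the 3′ end. The cause of these shifts was not tested. Centring on all genes moved the icLASER RPKM median to -0.17. By rank, the median correlations were 0.257 (reagents in vivo), 0.324 (reagents in vitro), 0.431 (icSHAPE between conditions) and 0.376 (icLASER between conditions). Moving scores by 1 nt left the mean start codon differences within that interval.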

Other observations

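The 5′ ends of these mRNAs, which for 22 of 25 members were placed by scores, were long in places and only in part scored. In AIMP1 145 of 674 nt of the 5′ UTR were scored in both icSHAPE profiles, and in FARSB 33 of 264 nt in both icLASER profiles, while YARS1, with the longest 5′ UTR at 909 nt, had 724 nt scored in icSHAPE. An AUG upstream of the start codon was present in 13 of 25 members (52.0%), beside 41.3% of 3485 genes. FARSB held 5 of them, WARS1 4, and IARS1, NARS1 and AIMP1 3 each. The mitochondrial members had short 5′ UTRs, with a median of 46 nt over 5 genes against 204 nt over 20 cytosolic ones, and FARS2 alone of the 5 carried an upstream AUG. The coding sequences of the synthetases had a median GC content of 50.1% and the 3′ UTRs 36.8%, against 52.2% and 42.2% over all genes.

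At the stop codon the icLASER score of the middle nucleotide averaged 0.319 in vitro over 22 members and 0.422 in vivo over 24, beside 0.297 and 0.333 over all genes. UGA was the stop codon in 12 of the 25 members (48.0%), UAA in 7 and UAG in 6, close to the 48.1%, 30.8% and 21.1% of all genes for UGA, UAA and UAG.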
